A study of Mus musculus with 45 samples.

Results

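The mitochondrial ribosomal protein genes of the mouse are described here in bulk polyA RNA sequencing of 45 cultures of mammary tumour cell lines. The set holds every gene in the count table whose symbol starts with Mrpl or Mrps followed by a digit, leaving out 1 pseudogene, and with 10 or more counts in at least 3 of the 45 libraries. It has 78 members of 28454 listed genes, and all 78 passed the count minimum and were tested in every model. The symbol rule names genes and not positions in the ribosome, so it also takes in Mrps36, whose protein belongs to the oxoglutarate dehydrogenase complex, and leaves out ribosomal proteins with other names such as Dap3 and Ptcd3.

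The lines MYAZ16_1e, MYAZ12_3i and MYAZ6_6g came from mammary tumours of MMTV-cMYC mice, in which a viral promoter active in mammary epithelium drives cMYC. Myc310 likewise came from an MMTV-cMYC mouse, which carried multiple tumours, and is the sole line of its origin. LM1, LM2 and LM3 were grown from lungs of mice carrying Myc310 in the mammary fat pad, and LM1_LM, LM2_LM and LM3_LM from lungs of mice carrying LM1, so all 6 lung-derived lines descend from that 1 line. MYAZ12_3i_NDI1 is MYAZ12_3i labelled as carrying NDI1, the single-subunit NADH dehydrogenase of yeast mitochondria, whose own transcript was not analysed here. Every line was grown in control medium in 3 cultures. MYAZ16_1e, Myc310, LM1 and LM1_LM were also grown for 6 h without cysteine and cystine, again in 3 cultures each, which gave 12 deprived and 33 control libraries. The study describes cultures of a line as technical replicates. For deprivation and for NDI1, p-values therefore measure only the spread between cultures of a line. Between origins each culture counts as a separate library, which mixes spread between lines and between cultures, so those p-values can be too small.

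The mitochondrial ribosome translates the 13 mRNAs of mitochondrial DNA (mtDNA), all of which code for subunits of the respiratory chain and ATP synthase. Its rRNAs are transcribed from mtDNA, whereas all its proteins are encoded in the nucleus, made in the cytosol and imported. Some of these proteins have counterparts in bacterial ribosomes and others were acquired by mitochondria, and below they are grouped as 29 large-subunit and 16 small-subunit proteins with a bacterial counterpart, 22 large-subunit and 10 small-subunit proteins specific to mitochondria, and Mrps36.

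Libraries held 19517859 to 29019988 counts, with a median of 22899900, and replicate cultures correlated at r = 0.9938 to 0.9951 across genes. Keratins Krt8, Krt18 and Krt19 were detected in all 45 libraries, with Krt8 reaching 1731 CPM (counts as a share of the library total scaled by trimmed mean of M values), whereas the epithelial genes Epcam and Cdh1 never exceeded 0.80 and 0.28 CPM, and basal Krt5 and Krt14 never exceeded 0.25 and 1.13 CPM. The leukocyte genes Ptprc and Laptm5 had at most 5 and 4 counts, whereas Cd68, a lysosomal protein best known from macrophages, had counts in all 45 libraries and reached 18.7 CPM. The endothelial genes Pecam1, Cdh5 and Tek had at most 6, 17 and 4 counts, and Kdr reached 6.36 CPM. Of lung and stromal genes, the alveolar genes Sftpc and Sftpb had at most 2 counts, but the fibroblast genes Col3a1 and Pdgfra reached 199 and 58.3 CPM. Summed over 6 fibroblast markers, of which Dcn and Lum stayed at or under 3 counts, control levels ran over 7.16 to 64.7 CPM in the 9 MYAZ libraries, 1.66 to 2.02 in Myc310, 14.95 to 124 in the LM lines and 33.6 to 216 in the LM-LM lines. The sum of 7 epithelial markers was 333 to 1162, 1360 to 1376, 1096 to 2108 and 1010 to 2380 CPM in the same order. The fibroblast genes Col1a1 and Col1a2 reached only 3.92 and 1.48 CPM. By edgeR (adjusted p under 0.05), 0, 1 and 1 of 4 tested fibroblast markers were higher than in MYAZ in Myc310, LM and LM-LM, and 3, 2 and 3 lower. Of 5 tested epithelial markers 2 were higher and 2 lower in each, so these sums do not describe each marker. In deprived libraries the fibroblast sum was 10.1 to 11.2 CPM in MYAZ16_1e, 2.59 to 2.75 in Myc310, 10.5 to 11.4 in LM1 and 26.9 to 29.2 in LM1_LM, and the epithelial sum 1341 to 1388, 1581 to 1615, 1376 to 1413 and 1315 to 1343 CPM. By the same test of deprived against control cultures, 4, 3, 3 and 3 of 5 epithelial markers rose in these lines and 0 fell. Of 4 fibroblast markers 1 rose in each line, and 0, 0, 1 and 1 fell. The part of these marker differences in the results below was not tested.

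All 78 members were detected, at unequal levels. Per kilobase of the median coding transcript, the control-medium mean over 10 lines was highest for Mrpl20 at 127 CPM per kb, Mrps6 at 117, Mrpl42 at 116 and Mrpl12 at 115, and lowest for Mrpl1 at 9.92, Mrpl57 at 9.28 and Mrpl47 at 8.85. Mrpl20 is a large-subunit protein with a bacterial counterpart, and Mrpl12 forms the stalk of the large subunit and also binds the mitochondrial RNA polymerase. Between the highest and the lowest of the 10 lines, a member differed by a median of 1.41-fold. This span ran from 1.08-fold to 2.51-fold, and 3 members exceeded 2-fold, namely Mrps6 at 2.51, Mrps25 at 2.35 and Mrpl36 at 2.32.

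The first question was what the mRNAs of the mitochondrial ribosome did when cells lost cysteine and cystine. In control medium the 78 members summed to 3880 ± 50.1 CPM in MYAZ16_1e, 3798 ± 11.7 in Myc310, 3882 ± 32.9 in LM1 and 4007 ± 28.8 in LM1_LM (SD, n = 3 each). After deprivation the sums were 3477 ± 40.6, 3418 ± 25.8, 3420 ± 6.69 and 3529 ± 15.1 CPM in the same order. In each of the 4 lines every deprived culture lay under every control culture of that line. The sum is given without a test. In bulk libraries fewer cells of a type and less RNA per cell cannot be told apart, and a CPM is a scaled share of the library and not an amount per cell. As unscaled shares of the counts, the members went from 0.394% to 0.358% in MYAZ16_1e and from 0.386% to 0.336% in Myc310. In LM1 they went from 0.385% to 0.321% and in LM1_LM from 0.397% to 0.327%. How far the lines differ in this fall therefore depends on the scaling.

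**Figure D1:**
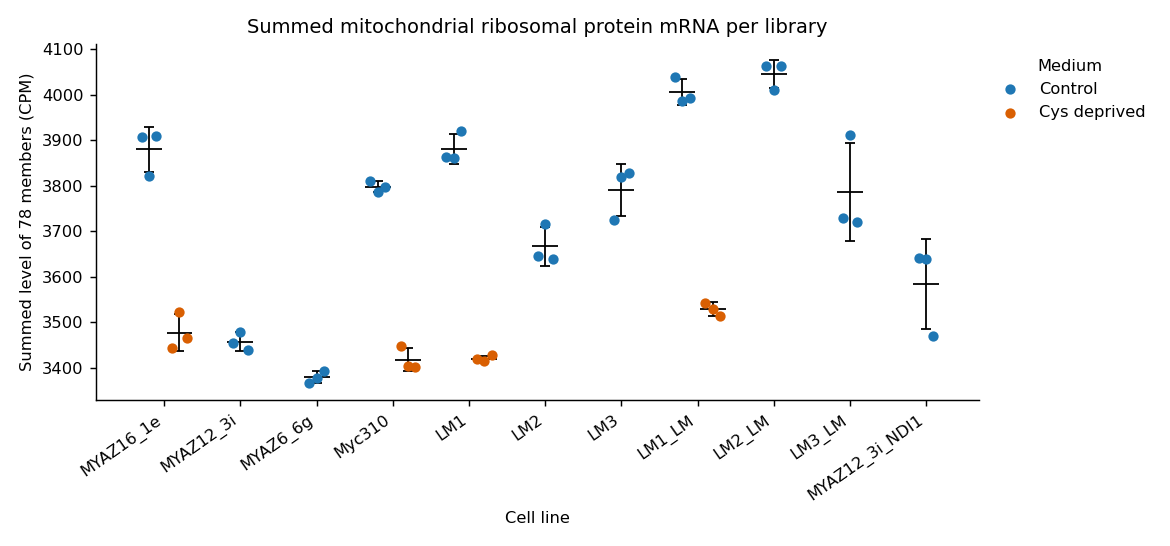
Summed CPM of the 78 mitochondrial ribosomal protein genes (vertical axis, not starting at 0) in each library, by cell line (horizontal axis), with control and deprived cultures in separate colours and bars for the group means. Deprived cultures of the 4 treated lines lie between 3418 and 3529 CPM on average, under the control cultures of the same lines at 3798 to 4007 CPM, and the control cultures of MYAZ12_3i and MYAZ6_6g average 3457 and 3379 CPM.

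Deprivation moved most members, and more of them downwards. In MYAZ16_1e, 43 of 78 members fell and 8 rose (adjusted p under 0.05 over all genes tested, edgeR quasi-likelihood test), against 27.1% of all 13400 genes that fell and 26.6% that rose. The shares of members were 55.1% and 10.3%. In Myc310, 42 fell and 19 rose, or 53.8% and 24.4%, against 33.9% and 32.8% of all genes. In LM1, 42 fell and 22 rose, or 53.8% and 28.2%, against 35.3% and 35.8% of all genes. In LM1_LM, 42 fell and 21 rose, or 53.8% and 26.9%, against 35.9% and 36.5% of all genes. Because the members are well expressed, their shares can also be set beside the 9236 genes with a log2 CPM of at least 3, of which 35.8%, 40.7%, 40.3% and 40.5% fell and 31.6%, 39.4%, 43.6% and 44.5% rose in the same order of lines.

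Most changes were small. The median log2 fold change of the members was -0.16 in MYAZ16_1e, -0.15 in Myc310, -0.19 in LM1 and -0.18 in LM1_LM, where the medians of all genes tested lay between -0.01 and 0.00. No member rose past 2-fold, where 3.78%, 6.93%, 9.06% and 9.76% of all genes did with an adjusted p under 0.05. In the same order 1, 2, 3 and 3 members fell past it, or 1.28%, 2.56%, 3.85% and 3.85%, against 0.821%, 5.44%, 9.21% and 10.3% of all genes. Of the 9236 genes with a log2 CPM of at least 3, 0.325%, 3.43%, 6.28% and 7.29% fell past it and 2.24%, 5.32%, 7.88% and 8.53% rose past it. The SD of the log2 fold change across members was 0.22, 0.39, 0.51 and 0.50, while across all genes it was 0.67, 0.92, 1.07 and 1.10, so in both sets it was lower in MYAZ16_1e than in the other 3 lines. These are spreads across genes, which are not independent replicates.

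**Figure D2:**
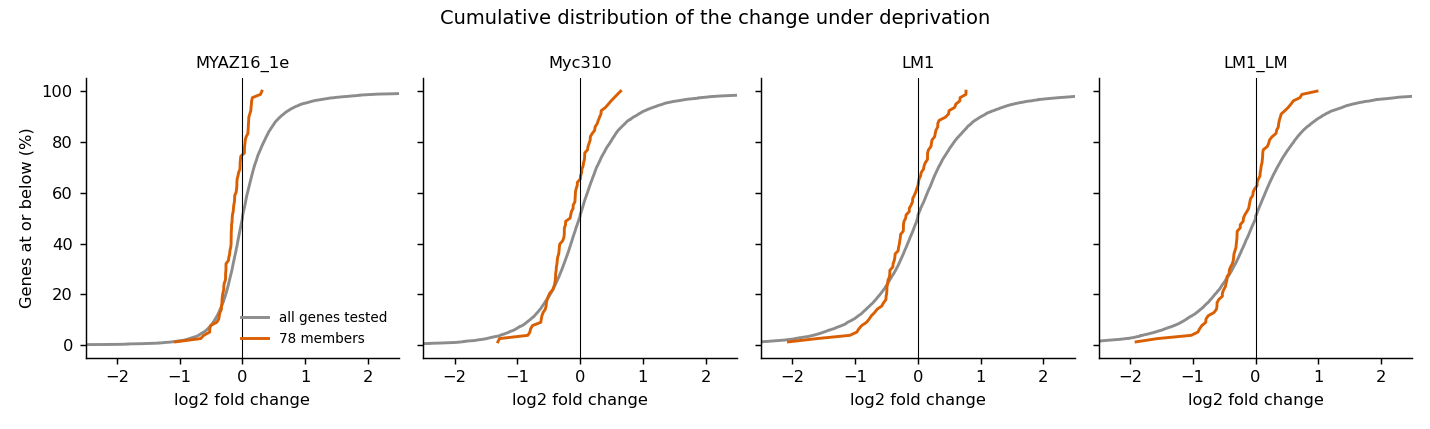
Cumulative share (vertical axis) of log2 fold changes on deprivation (horizontal axis) for the 78 members and for all 13400 genes tested, 1 panel per line. The members' curve is left of the curve for all genes around 0, with medians of -0.16, -0.15, -0.19 and -0.18, and its tails are shorter.

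Followed over the 4 lines, 34 members fell in all 4, or 43.6%, where 19% of all 13400 genes and 25.6% of the 9236 with a log2 CPM of at least 3 did. The 7 that rose in all 4, or 8.97%, compare with 19.3% and 24.6%. A further 13 fell in 1 to 3 lines and 15 rose in 1 to 3 lines without passing in the other direction anywhere, or 16.7% and 19.2%, against 21.6% and 19.7% of all genes and 18.5% and 19.1% of the well-expressed ones. Only Mrpl53 and Mrps6 passed in both directions, and Mrpl4, Mrpl10, Mrpl37, Mrpl39, Mrpl46, Mrpl50 and Mrps17 passed in none. Of all genes 6.15% passed in both directions and 14.3% in no line, and of the well-expressed ones 8.13% and 4.06%. Of the 34 members that fell everywhere, 31 had a larger fall in Myc310 than in MYAZ16_1e, 29 a larger fall in LM1 and 27 a larger fall in LM1_LM. These shares of 91.2%, 85.3% and 79.4% were close to the 86.5%, 84.7% and 83.8% of the 2548 genes that fell in all 4 lines.

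**Figure D3:**
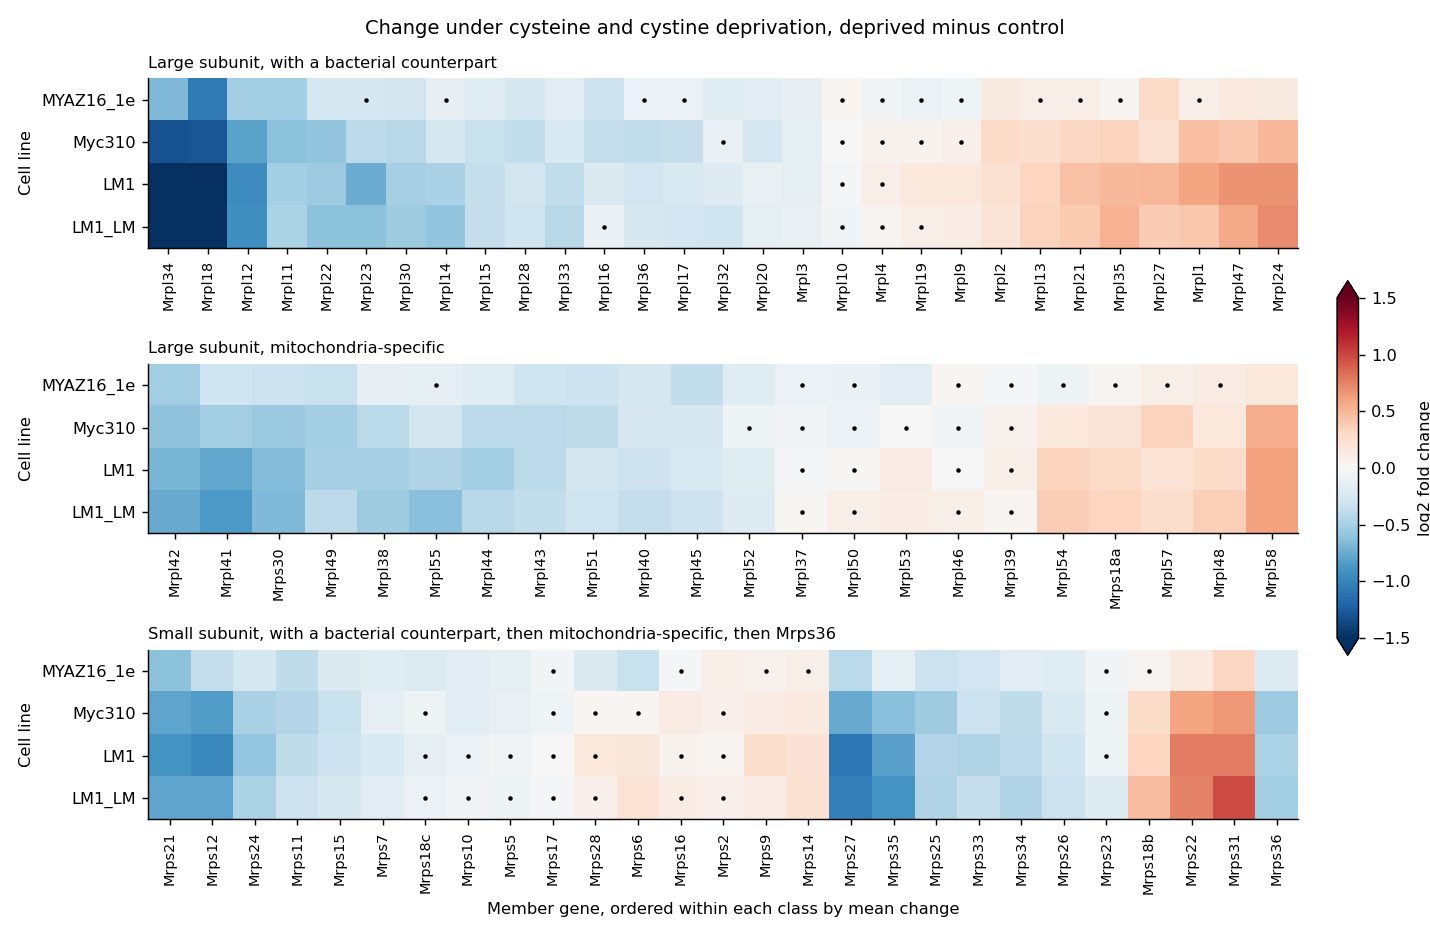
Log2 fold change on deprivation of each member (one cell per member) in the 4 lines, grouped by class of protein, with blue for lower, red for higher (colour limited to 1.5 in either direction) and a dot where the adjusted p was 0.05 or more. In all classes with more than 1 member, cells of both colours stand side by side, and 34 members are lower and 7 higher in all 4 lines.

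Falls outnumbered rises in each class of protein. The counts are to be read beside the shares of all genes, of which 27.1%, 33.9%, 35.3% and 35.9% fell in the 4 lines. In the same order 26.6%, 32.8%, 35.8% and 36.5% of all genes rose. Among the 29 large-subunit proteins with a bacterial counterpart, 13, 16, 17 and 16 fell and 4, 8, 10 and 9 rose in MYAZ16_1e, Myc310, LM1 and LM1_LM, with medians of -0.12, -0.23, -0.19 and -0.14. Among the 22 mitochondria-specific large-subunit proteins, 12, 11, 12 and 12 fell and 1, 5, 6 and 6 rose, with medians of -0.15, -0.17, -0.21 and -0.25. In the small subunit, the 16 proteins with a bacterial counterpart gave 11, 8, 6 and 6 falls and 1, 3, 3 and 3 rises, with medians of -0.19, -0.09, -0.07 and -0.06. In LM1 and LM1_LM the 6 that fell were 37.5% of that class, near the 35.3% and 35.9% of all genes. Of genes with a log2 CPM of at least 3, 40.3% and 40.5% fell there. The 10 large-subunit proteins with a bacterial counterpart that rose in LM1 were 34.5% of their class, near the 35.8% of all genes. Of the 10 mitochondria-specific small-subunit proteins, 6, 6, 6 and 7 fell and 2, 3, 3 and 3 rose, with medians of -0.15, -0.28, -0.34 and -0.34. No difference between classes was tested.

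Mrpl34, a large-subunit protein with a bacterial counterpart (chromosome 8, 71464959-71465747, plus strand, GRCm38), had the lowest log2 fold change of the members in LM1 and LM1_LM. In Myc310 it and Mrpl18 differed by less than the SE, and in MYAZ16_1e Mrpl18 fell further. In LM1 it stood at 30.7, 32.4 and 30.9 CPM in control cultures and at 7.43, 7.08 and 7.45 CPM in deprived ones, a log2 fold change of -2.06 (SE 0.082, adjusted p = 6.62e-20). LM1_LM was similar, with 35.1, 31.8 and 30.3 CPM against 7.91, 8.47 and 9.03 CPM (-1.90, SE 0.079, adjusted p = 1.67e-19). In Myc310 the values were 33.2, 33.9 and 34.5 CPM against 15.5, 11.9 and 13.9 CPM (-1.31, SE 0.073, adjusted p = 4.5e-16). In MYAZ16_1e the control cultures were lower and the deprived cultures higher than in the other 3 lines, at 28.7, 27.6 and 29.8 CPM against 17.1, 19.7 and 17.8 CPM (-0.67, SE 0.071, adjusted p = 2.83e-09). Control and deprived cultures did not overlap in any line, and the lowest deprived levels were in the lines derived from lungs.

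Mrpl18, also of the large subunit with a bacterial counterpart, fell by more than 2-fold in all 4 lines. Its control cultures held 98.4, 92.2 and 99.7 CPM in MYAZ16_1e and its deprived cultures 46.7, 47.3 and 45.3 CPM, a log2 fold change of -1.07 (SE 0.046, adjusted p = 3.17e-18). In Myc310 it went from 80.9, 81.1 and 81.7 to 35.9, 33.1 and 32.0 CPM (-1.28, SE 0.049). In LM1 it went from 82.7, 85.0 and 86.3 to 29.1, 25.0 and 27.4 CPM (-1.61, SE 0.050), and in LM1_LM from 89.4, 82.3 and 86.7 to 29.9, 28.2 and 26.8 CPM (-1.56, SE 0.050). No deprived culture reached the lowest control culture of its line. The gene overlaps Tcp1 on the other strand (chromosome 17, 12911349-12916345, minus strand), and whether strand was used in counting is not given in the sources used here. Tcp1, a chaperonin subunit, had log2 fold changes of -0.30, -0.23, -0.12 and -0.11.

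Mrpl12, the stalk protein (chromosome 11, 120484613-120489065, plus strand), fell in all 4 lines. In MYAZ16_1e it held 161, 157 and 165 CPM in control and 109, 117 and 113 CPM in deprived cultures (-0.52, SE 0.029, adjusted p = 1.58e-15). In Myc310 the values were 160, 156 and 154 against 91.3, 89.5 and 91.5 CPM (-0.80, SE 0.030). In LM1 they were 164, 166 and 170 against 86.0, 85.8 and 82.8 CPM, and in LM1_LM 180, 172 and 173 against 88.4, 92.03 and 90.9 CPM, log2 fold changes of -0.94 and -0.92 (SE 0.030 each). All 12 deprived cultures lay below all 12 control cultures of these lines.

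Among small-subunit proteins, Mrps27, specific to mitochondria, fell by 0.41 on the log2 scale in MYAZ16_1e (adjusted p = 9.18e-09), from 51.5, 55.5 and 54.5 to 42.0, 42.5 and 38.0 CPM. In LM1 it went from 59.1, 57.9 and 63.3 to 28.3, 26.4 and 28.2 CPM (-1.08, SE 0.049, adjusted p = 1.64e-18). In Myc310 and LM1_LM the log2 fold changes were -0.76 and -1.02, again with no overlap. Mrps12, the protein at the decoding centre, held 18.4, 18.2 and 17.8 CPM in control and 10.7, 10.96 and 9.23 CPM in deprived Myc310 cultures (-0.83, adjusted p = 2.91e-09) and a log2 fold change of -0.97 in LM1. Mrps21 fell, at -0.62, -0.79, -0.89 and -0.79 on the log2 scale in MYAZ16_1e, Myc310, LM1 and LM1_LM, and likewise Mrpl42 of the large subunit at -0.52, -0.61, -0.69 and -0.76. Mrps35, a mitochondria-specific protein of the small subunit, moved little in MYAZ16_1e, from 50.9, 48.5 and 48.5 to 43.6, 46.1 and 44.7 CPM (-0.14, adjusted p = 0.0112), and more in LM1_LM, from 43.1, 41.3 and 43.2 to 23.2, 22.2 and 21.5 CPM (-0.89, adjusted p = 9.18e-16).

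The genes that rose came from both subunits. Mrps31, a mitochondria-specific small-subunit protein (chromosome 8, 22411361-22429665, plus strand), held 16.7, 16.2 and 18.3 CPM in control and 33.5, 33.6 and 31.1 CPM in deprived LM1_LM cultures, the largest rise of any member (0.98, SE 0.061, adjusted p = 3.96e-15). In LM1 it went from 17.4, 17.1 and 19.6 to 29.1, 31.8 and 28.8 CPM (0.77), and in Myc310 from 19.9, 18.7 and 18.7 to 31.3, 29.3 and 29.98 CPM (0.65). In MYAZ16_1e it went from 25.3, 23.1 and 24.6 to 29.4, 30.9 and 30.4 CPM (0.31, SE 0.058, adjusted p = 4.3e-05). The deprived cultures of the 4 lines held similar levels, from 28.8 to 33.6 CPM, where the control cultures ran from 16.2 to 25.3 CPM.

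Mrps22, another mitochondria-specific small-subunit protein, rose in LM1 from 32.5, 33.1 and 29.05 to 52.0, 55.2 and 50.02 CPM (0.77, adjusted p = 6.7e-14) and by 0.59 and 0.74 in Myc310 and LM1_LM. In MYAZ16_1e it held 32.0, 28.4 and 29.7 CPM against 34.98, 33.1 and 32.0 CPM (0.15, adjusted p = 0.0264), so the highest control and the lowest deprived culture met. Mrpl24, whose bacterial counterpart binds early in assembly of the large subunit, rose in LM1_LM from 63.8, 63.9 and 65.6 to 107, 102 and 98.4 CPM (0.71, adjusted p = 3.94e-17), and in MYAZ16_1e from 44.9, 44.9 and 45.4 to 50.4, 48.1 and 50.3 CPM (0.13, adjusted p = 0.00617). Its rises in Myc310 and LM1 were 0.49 and 0.67. Rrnad1, which overlaps Mrpl24 on the other strand, passed the test in none of the 4 lines. Mrpl58, a peptidyl-tRNA hydrolase that became part of the large subunit, rose in LM1 from 28.6, 27.5 and 28.9 to 41.4, 41.6 and 43.0 CPM (0.60, adjusted p = 1.2e-11), and its log2 fold changes in MYAZ16_1e, Myc310 and LM1_LM were 0.16, 0.54 and 0.60.

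The other 3 members that rose in all 4 lines were Mrpl47, Mrpl27 and Mrpl2, large-subunit proteins with bacterial counterparts. Mrpl47 had log2 fold changes of 0.14, 0.40, 0.67 and 0.56 in MYAZ16_1e, Myc310, LM1 and LM1_LM, Mrpl27 of 0.29, 0.23, 0.50 and 0.38, and Mrpl2 of 0.14, 0.29, 0.23 and 0.19. Mrpl1 of the L1 stalk rose by 0.45, 0.59 and 0.41 in Myc310, LM1 and LM1_LM, and its log2 fold change in MYAZ16_1e was 0.09 (adjusted p = 0.135). Some of the small rises in MYAZ16_1e were close to the threshold and lost their calls under an alternative at log2 fold changes of 0.11 to 0.13. Without control replicate 1 or deprived replicate 3 the adjusted p of Mrpl58 there was 0.0758 or 0.0768, without deprived replicate 1 or control replicate 3 that of Mrpl47 was 0.099 or 0.0706, and without deprived replicate 3 that of Mrpl2 was 0.0721. With no filter on low counts that of Mrpl47 was 0.0995.

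**Figure D4:**
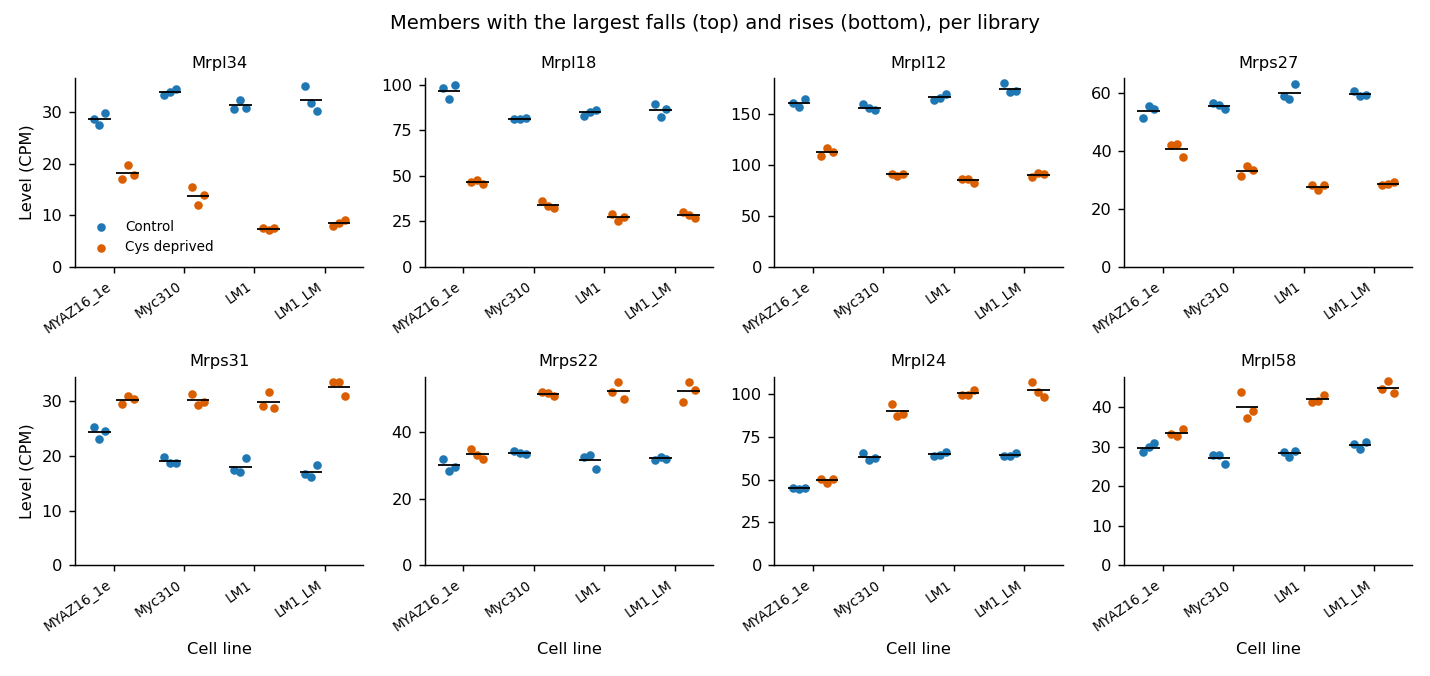
CPM (vertical axes, starting at 0) of 8 members in each control (blue) and deprived (orange) culture of MYAZ16_1e, Myc310, LM1 and LM1_LM. Mrpl34, Mrpl18, Mrpl12 and Mrps27 in the top row are lower in every deprived culture, with Mrpl34 at 7.08 to 9.03 CPM in deprived LM1 and LM1_LM, and Mrps31, Mrps22, Mrpl24 and Mrpl58 in the bottom row are higher in deprived cultures, least so in MYAZ16_1e.

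Members whose names or places are not typical of the ribosome divided in the same way. Mrps30, which lies in the large subunit despite its name, fell, at -0.32, -0.56, -0.65 and -0.66 on the log2 scale in MYAZ16_1e, Myc310, LM1 and LM1_LM. Mrps36, which is not a ribosomal protein by structure, fell, at -0.20, -0.54, -0.47 and -0.51 on the log2 scale (adjusted p = 0.00351, 3.56e-10, 7.28e-09 and 1.07e-09). The 3 paralogs of bacterial S18, of which Mrps18a lies in the large subunit, differed among themselves. Mrps18a rose by 0.19, 0.29 and 0.33 and Mrps18b by 0.27, 0.32 and 0.47 in Myc310, LM1 and LM1_LM, and both had a log2 fold change of 0.04 in MYAZ16_1e (adjusted p = 0.53 and 0.378). Mrps18c had log2 fold changes of -0.20 in MYAZ16_1e (adjusted p = 0.0358) and -0.07, -0.14 and -0.09 in the other lines (adjusted p = 0.479, 0.187 and 0.374). The MYAZ16_1e value of Mrps18c lost its call without control replicate 2 or 3 or deprived replicate 1 or 3, at adjusted p of 0.0561 to 0.111, and without deprived replicate 1 of LM1 its value there was -0.25 with an adjusted p of 0.0268. With upper-quartile scaling Mrps18c also passed in LM1, at -0.21 (adjusted p = 0.0408).

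Mrps6 needs a separate statement. This small-subunit protein with a bacterial counterpart had log2 fold changes of -0.33, 0.02, 0.17 and 0.21 in MYAZ16_1e, Myc310, LM1 and LM1_LM (adjusted p = 2.14e-07, 0.61, 0.000276 and 1.4e-05). Its locus (chromosome 16, 92058270-92112227, plus strand) holds Slc5a3, a myo-inositol transporter gene, on the same strand, so the counting could divide reads between them either way. Slc5a3 had -0.46, -0.13, 0.11 and 0.14 in the same lines, and the value of Mrps6 is therefore uncertain here and below.

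Promoter sequence was compared because members that fell and members that rose lie side by side in every class. RefSeq promoters, from 250 bases before to 50 after the annotated start (GRCm38.p6), were matched by symbol for 69 of the 78 members, while Mrpl4, Mrpl13, Mrpl15, Mrpl19, Mrpl38, Mrpl54, Mrps28, Mrps34 and Mrps35 have no entry. On either strand, the core of ETS factors such as GABPA (CCGGAAG) was in 25 of them, or 36.2%, against 9.12% of all 27025 promoters. The NRF1 motif (GCGCANGCG) was in 16 (23.2% against 6.47%) and a YY1 motif (AAGATGGC) in 12 (17.4% against 2.88%), factors long known for nuclear genes of mitochondria. The MYC E-box (CACGTG) was in 5 (7.25% against 7.24%), the CCAAT box in 27 (39.1% against 37.9%) and the ATF4 element TGATGNAA in 0 against 4.06%. Of the 38 matched members that fell in LM1, 14 held the ETS core, 10 the NRF1 motif and 9 the YY1 motif, and of the 19 that rose, 8, 4 and 2 did. These are matches of letters and not sites of binding, and the motifs can overlap each other.

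The 250 bases before the start are printed for Mrpl34, which fell furthest in LM1, and for 2 members that rose there, 5′ to 3′ on the strand of the gene, with the ETS core in capitals. Mrpl34 is at chr8:71464676-71464925 on the plus strand with the core 37 bases before the start, Mrps22 at chr9:98601680-98601929 on the minus strand with it 11 bases before, and Mrpl58 at chr11:115403502-115403751 on the plus strand with it 17 bases before. All 3 hold the same letters close to the start, and their log2 fold changes in LM1 were -2.06, 0.77 and 0.60.
Mrpl34: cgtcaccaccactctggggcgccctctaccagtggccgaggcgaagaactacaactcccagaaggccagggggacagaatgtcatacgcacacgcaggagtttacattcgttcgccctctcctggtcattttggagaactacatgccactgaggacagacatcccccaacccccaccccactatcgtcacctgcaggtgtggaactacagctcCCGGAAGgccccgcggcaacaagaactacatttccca
Mrps22: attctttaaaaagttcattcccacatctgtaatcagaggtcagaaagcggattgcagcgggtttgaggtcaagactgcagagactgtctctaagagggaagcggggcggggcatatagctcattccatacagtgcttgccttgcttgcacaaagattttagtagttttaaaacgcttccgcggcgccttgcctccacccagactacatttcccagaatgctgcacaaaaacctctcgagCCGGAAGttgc
Mrpl58: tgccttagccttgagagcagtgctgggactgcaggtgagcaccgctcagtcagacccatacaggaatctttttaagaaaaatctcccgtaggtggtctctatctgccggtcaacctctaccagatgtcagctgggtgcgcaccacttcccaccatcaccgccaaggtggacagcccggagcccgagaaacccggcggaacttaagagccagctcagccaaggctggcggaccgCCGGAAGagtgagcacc

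Whether the lines responded unequally was tested as the difference of each line's log2 fold change from that of MYAZ16_1e, and the 3 differences share the MYAZ16_1e libraries. For Myc310, 12 members differed upwards and 16 downwards, against 19.8% and 20.4% of all genes. For LM1 the counts were 19 and 24, against 26.9% and 25.3%, and for LM1_LM 19 and 21, against 28.4% and 26.4%. As shares of the members these were 15.4% and 20.5% in Myc310, 24.4% and 30.8% in LM1 and 24.4% and 26.9% in LM1_LM, each within 6 percentage points of the share of all genes. Of the 9236 genes with a log2 CPM of at least 3, 26.7%, 36.2% and 37.9% differed upwards and 25.8%, 29.7% and 30.8% downwards in Myc310, LM1 and LM1_LM, so the upward shares of the members lay below those of well-expressed genes by more. The median difference of the members was -0.03, -0.01 and 0.01, and that of all genes -0.02, 0.01 and 0.00. With upper-quartile scaling the upward and downward counts were 9 and 19 in Myc310, 13 and 31 in LM1 and 13 and 30 in LM1_LM, against 17% and 23.5%, 21.4% and 30.8%, and 22.7% and 31.9% of all genes, so the division between directions depends on the scaling while the totals were 28, 44 and 43.

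The genes with the largest differences were those named above. Mrpl34 differed from MYAZ16_1e by -0.64 in Myc310, -1.40 in LM1 and -1.24 in LM1_LM (adjusted p = 6.86e-06, 5.18e-12 and 3.29e-11). Mrps35 differed by -0.48, -0.67 and -0.75 (adjusted p = 1.11e-06, 1.72e-09 and 1.8e-10). Mrps27 differed by -0.67 in LM1 and -0.62 in LM1_LM (adjusted p = 8.12e-10 and 3.63e-09), and Mrps12 by -0.47 in Myc310 (adjusted p = 0.00345). In the other direction, Mrps22 differed by 0.45, 0.62 and 0.59 (adjusted p = 1.95e-05, 5.31e-08 and 9.02e-08) and Mrpl24 by 0.36, 0.54 and 0.57 (adjusted p = 3.59e-06, 1.2e-09 and 2.13e-10). Mrpl58 differed by 0.38 in Myc310, Mrpl47 by 0.53 in LM1 and Mrps31 by 0.67 in LM1_LM (adjusted p = 9.88e-05, 1.6e-07 and 6.08e-08). Each of these genes moved in the same direction in MYAZ16_1e, by less.

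Genes that work with the mitochondrial ribosome were counted the same way, and their counts are to be read beside the 27.1%, 33.9%, 35.3% and 35.9% of all genes that fell and the 26.6%, 32.8%, 35.8% and 36.5% that rose in MYAZ16_1e, Myc310, LM1 and LM1_LM. Of 5 ribosomal proteins with other names, 2, 3, 3 and 3 fell in MYAZ16_1e, Myc310, LM1 and LM1_LM and 0, 1, 1 and 1 rose. Ptcd3, of the small subunit, fell, at -0.21, -0.26, -0.26 and -0.34 on the log2 scale, and Dap3, which binds GTP in the small subunit, fell, at -0.23, -0.24 and -0.23 on the log2 scale in Myc310, LM1 and LM1_LM, with -0.02 in MYAZ16_1e (adjusted p = 0.595). Chchd1 fell by 0.21 in MYAZ16_1e and rose by 0.11, 0.17 and 0.20 in the other lines.

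The 26 genes for assembly of the ribosome and modification of its rRNA moved both ways, with 5, 8, 10 and 12 falling and 12, 8, 12 and 9 rising. Mterf3, a factor for assembly of the large subunit, rose by 0.75, 1.31, 1.39 and 1.56, from 19.6 ± 1.1 to 33.3 ± 0.49 CPM in MYAZ16_1e and from 21.1 ± 1.3 to 60.5 ± 1.5 CPM in LM1_LM (SD, n = 3). Ngrn, needed for the large-subunit rRNA, rose by 0.90, 0.91, 1.21 and 1.22, and the rRNA methyltransferase genes Mettl15 and Nsun4 rose by 0.57, 0.84, 1.03 and 1.18 and by 0.46, 0.60, 0.89 and 0.84. Noa1, a GTPase of small-subunit assembly, fell, at -0.38, -1.02, -1.34 and -1.45 on the log2 scale, and Rbfa, which matures the small-subunit rRNA, at -0.35, -0.71, -1.08 and -1.07. In LM1 only Mrpl34 and Mrpl18 among the 78 members changed by more than Noa1 and Mterf3.

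Of 17 translation factors, 5, 10, 12 and 11 fell and 3, 4, 4 and 4 rose. The elongation factor Tufm fell, at -0.42, -0.65, -0.62 and -0.65 on the log2 scale, and Mtfmt and Pdf, which add and remove the formyl group of the first methionine, fell, at -0.80 and -0.79 on the log2 scale in LM1 but had -0.01 and 0.03 in MYAZ16_1e (adjusted p = 0.967 and 0.704). The recycling factor Mrrf rose by 0.43, 0.62 and 0.59 in Myc310, LM1 and LM1_LM, with 0.08 in MYAZ16_1e (adjusted p = 0.183). Of 11 genes for transcription and maintenance of mtDNA, 6, 6, 6 and 7 fell and 2, 2, 2 and 3 rose. The helicase Twnk fell, at -0.32, -0.80, -1.22 and -1.40 on the log2 scale and the RNA polymerase Polrmt at -0.20, -0.62, -0.56 and -0.54, while Tfam, which packages mtDNA, rose by 0.21, 0.18, 0.24 and 0.25.

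Few of the 13 mRNAs of mtDNA itself passed the test: 0, 1, 1 and 1 fell and 0, 0, 0 and 2 rose, and in MYAZ16_1e none had an unadjusted p under 0.05 (0 of 13 by edgeR). Their log2 fold changes ran from -0.15 to 0.33 in MYAZ16_1e, -0.35 to 0.12 in Myc310, -0.27 to 0.29 in LM1 and -0.24 to 0.35 in LM1_LM. The gene that fell in 3 lines was mt-Nd1, at -0.35, -0.27 and -0.23 in Myc310, LM1 and LM1_LM. The level of mt-Co2, for example, was 1853 ± 448 CPM in the control cultures of MYAZ16_1e (SD, n = 3). Of 11 regulators of mitochondrial genes tested, 5 fell in each line and 3, 4, 5 and 4 rose. The stress factors Atf4 and Atf5 rose by 1.65, 2.16, 2.52 and 2.61 and by 1.51, 2.52, 3.28 and 3.32. The coactivator gene Ppargc1b fell, at -0.32, -1.77, -3.51 and -3.47 on the log2 scale, and the nuclear receptor gene Esrra at -1.40, -1.80 and -1.99 in Myc310, LM1 and LM1_LM, with -0.09 in MYAZ16_1e (adjusted p = 0.292). Myc fell, at -0.32, -0.88 and -1.26 on the log2 scale in the same 3 lines, with 0.06 in MYAZ16_1e (adjusted p = 0.177). Reads of the cMYC transgene and of the gene's own locus were not told apart here.

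The second question was how the members differed between lines of unlike origin in control medium. Against the 9 MYAZ libraries, 26 members were higher and 13 lower in Myc310, or 33.3% and 16.7%, where 23.8% and 27.1% of all 13795 genes were. In the 9 LM libraries 27 were higher and 16 lower, or 34.6% and 20.5%, against 30.3% and 30.5% of all genes. In the 9 LM-LM libraries 31 were higher and 13 lower, or 39.7% and 16.7%, against 30.5% and 32.3%. Of the 9306 genes with a log2 CPM of at least 3, 28.6%, 34.6% and 35.6% were higher and 25.9%, 29.1% and 30.4% lower in Myc310, LM and LM-LM, so the share of members that was higher in LM equalled that of well-expressed genes. The median log2 fold change of the members was 0.08, 0.07 and 0.09, and that of all genes -0.02, 0.00 and -0.01. These 3 comparisons share the MYAZ libraries, and the lines are few: with the counts of each line summed, so that a line counts once, 14 members were higher and 3 lower in LM against 11.3% and 12.4% of 16017 genes, and 14 higher and 2 lower in LM-LM against 12.8% and 13.6%. Myc310, a single line, cannot be tested in that way.

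The summed level shows how far the MYAZ lines differ among themselves. MYAZ16_1e had 3880 CPM, and MYAZ12_3i and MYAZ6_6g had 3457 ± 21.0 and 3379 ± 13.2 CPM (SD, n = 3 each). The lines derived from Myc310 lay between 3667 ± 42.7 CPM in LM2 and 4045 ± 30.9 CPM in LM2_LM, with LM3 at 3791 ± 56.8 and LM3_LM at 3787 ± 107 CPM. MYAZ16_1e thus overlapped with the Myc310 lineage, and the other 2 MYAZ lines lay below it. Without MYAZ16_1e the median log2 fold change of Myc310 against MYAZ was 0.15, and without MYAZ6_6g it was 0.02.

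Mrps25, a mitochondria-specific small-subunit protein, lay at 36.5 to 60.9 CPM in the MYAZ libraries (median 42.5), 86.5 to 89.0 CPM in Myc310, 66.7 to 85.3 CPM in LM (median 81.1) and 75.8 to 98.9 CPM in LM-LM (median 77.7), log2 fold changes of 0.91, 0.75 and 0.79 (adjusted p = 1.49e-07, 1.19e-08 and 3.73e-09). Mrpl36, a very short large-subunit protein with a bacterial counterpart, lay at 20.2 to 25.4 CPM in MYAZ, 34.3 to 38.7 CPM in Myc310, 35.6 to 42.8 CPM in LM and 37.2 to 51.8 CPM in LM-LM (0.67, 0.76 and 0.91). Every library of the Myc310 lineage lay above every MYAZ library for both genes. Mrps6, with the limit given above, ran from 50.4 to 76.3 CPM in MYAZ and from 89.7 to 137 CPM in the others (0.79, 0.82 and 0.91), while Slc5a3 had 0.57, 0.92 and 0.89. The mitochondria-specific Mrpl57 and Mrps23 were higher by 0.61, 0.65 and 0.74 and by 0.56, 0.57 and 0.66, also without overlap. Mrps30 was higher by 0.49, 0.41 and 0.45 and Mrps36 by 0.42, 0.35 and 0.36.

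Mrps5, a small-subunit protein with a bacterial counterpart that sits where mRNA enters, was the clearest member in the other direction. It lay at 106 to 120 CPM in MYAZ, 69.2 to 72.7 CPM in Myc310, 66.7 to 72.4 CPM in LM and 61.1 to 86.2 CPM in LM-LM (-0.66, -0.70 and -0.68, adjusted p = 7.68e-09, 2.54e-13 and 5.51e-13). Mrps18c ran from 24.7 to 36.3 CPM in MYAZ and from 16.8 to 23.4 CPM in the others (-0.47, -0.49 and -0.49). Neither gene had a library of the Myc310 lineage inside the range of MYAZ. Mrpl1 was lower, at -0.42 and -0.46 in Myc310 and LM, and in Myc310 Mrpl13 and Mrpl39 were lower, at -0.56 and -0.31. Mrps5, Mrps18c and Mrpl1 were the 3 members still lower in LM with counts summed per line (adjusted p = 0.00169, 0.0313 and 0.0279), and Mrps5 and Mrps18c the 2 in LM-LM (adjusted p = 0.00193 and 0.0297). Mrpl36, Mrps6, Mrps25, Mrpl57 and Mrps23 were among the 14 higher in both (adjusted p = 0.000705 to 0.0124).

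Some differences varied with the MYAZ line. Mrpl12 averaged 161 CPM in MYAZ16_1e, 110 in MYAZ12_3i and 103 in MYAZ6_6g, and ran from 143 to 180 CPM in the Myc310 lineage, so its log2 fold changes of 0.32, 0.35 and 0.42 came with overlapping libraries. In Myc310 its adjusted p of 0.0202 became 0.0573 without Myc310 replicate 1 and 0.0596 without replicate 3, 0.0960 without line MYAZ12_3i and 0.118 without MYAZ6_6g, and with counts summed per line it was 0.115 in LM and 0.0656 in LM-LM. Mrps18a was lower, at -0.26, -0.28 and -0.31 and Mrps18b at -0.27, -0.25 and -0.15. Mrps18b lay at 62.4 to 63.8 CPM in Myc310, under its 68.4 to 89.5 CPM in MYAZ, and the other 5 of these values came with overlapping libraries. The call of Mrps18a in Myc310 was lost without Myc310 replicate 1 or 2 or line MYAZ16_1e (adjusted p = 0.0798, 0.21 and 0.188) and with no filter on low counts (adjusted p = 0.0802). That of Mrps18b in LM-LM was lost without line MYAZ16_1e or LM3_LM (adjusted p = 0.333 and 0.284) and with no filter (adjusted p = 0.0679), and neither gene passed with counts summed per line. Mrpl58 was higher by 0.19 in LM and 0.25 in LM-LM, with 0.14 in Myc310 (adjusted p = 0.233). Without line MYAZ16_1e it passed in Myc310, at 0.30 (adjusted p = 0.000265), whereas its call in LM was lost without MYAZ12_3i, MYAZ6_6g or LM2 (adjusted p = 0.115, 0.230 and 0.0972) and that in LM-LM without MYAZ6_6g (adjusted p = 0.0604), and it did not pass per line either (adjusted p = 0.287 and 0.173). The marker sums also differed between these origins. The sum of 4 leukocyte markers, almost all of it Cd68, was 4.08 to 6.26 CPM in the MYAZ libraries, 8.80 to 9.59 CPM in Myc310, 8.92 to 16.9 CPM in LM and 11.8 to 18.7 CPM in LM-LM, and that of 4 endothelial markers was 3.52 to 6.56 CPM in MYAZ, 0.28 to 0.66 CPM in Myc310, 0 to 0.91 CPM in LM and 0.22 to 0.67 CPM in LM-LM. Neither sum overlapped between MYAZ and the Myc310 lineage, and their part in these results was not tested. Of the 2 endothelial markers tested by edgeR, 1 was higher and 1 lower in each of Myc310, LM and LM-LM, so that sum does not describe each marker.

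**Figure D5:**
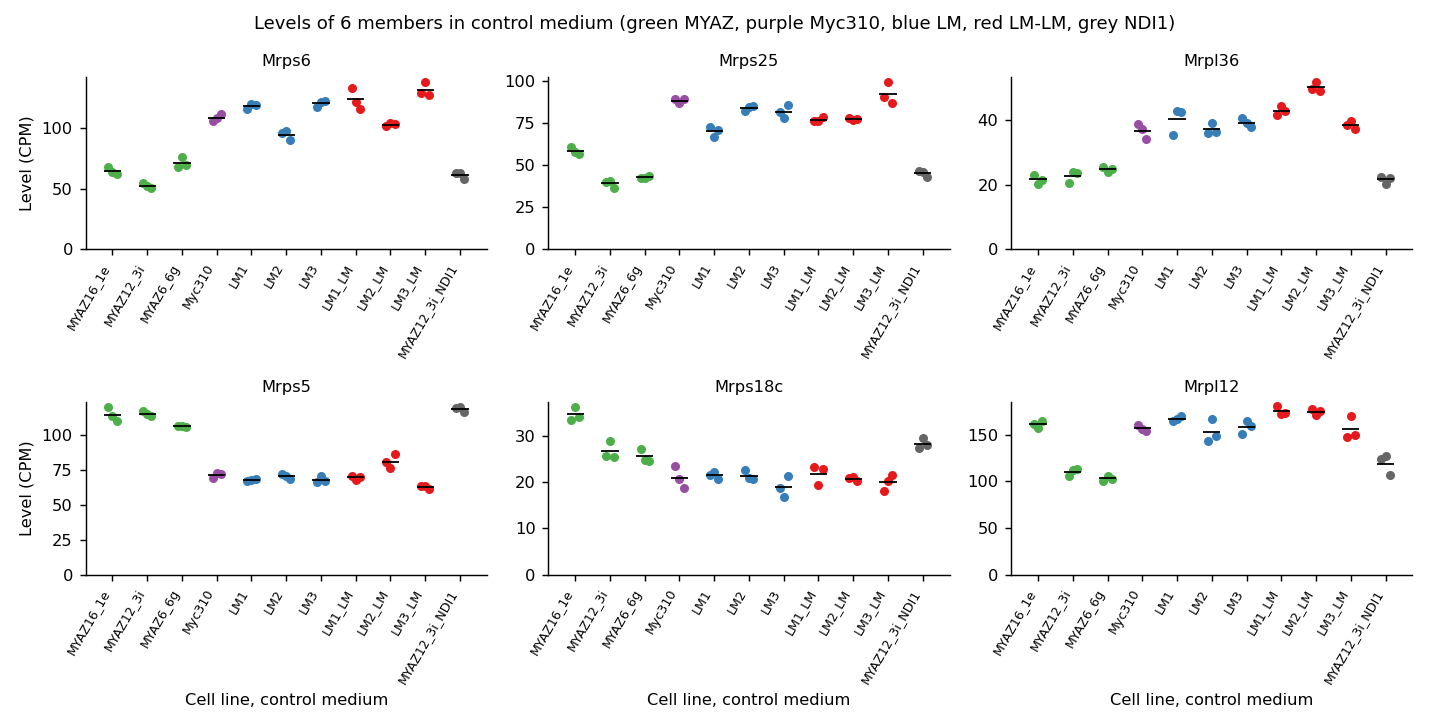
CPM (vertical axes, starting at 0) of Mrps6, Mrps25, Mrpl36, Mrps5, Mrps18c and Mrpl12 in each control culture of 11 lines (horizontal axis), coloured by origin, MYAZ green, Myc310 purple, LM blue, LM-LM red and NDI1 grey. Mrps6, Mrps25 and Mrpl36 are higher and Mrps5 and Mrps18c lower in every library of the Myc310 lineage than in the MYAZ lines, while Mrpl12 in MYAZ16_1e, at 161 CPM, lies within the range of that lineage.

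The pathway lists were counted between origins as well. Of the 13 mtDNA mRNAs, 5 were higher in Myc310, mt-Co3 by 0.48 and mt-Cytb by 0.76 (adjusted p = 0.0257 and 0.0186), and 0 passed in LM and in LM-LM by edgeR, where 1 and 0 had an unadjusted p under 0.05. Assembly and rRNA modification gave 10, 11 and 11 higher and 3, 8 and 5 lower of 26, translation factors 6, 6 and 8 higher and 1 lower each of 17, and mtDNA transcription and maintenance 4 higher each and 2, 1 and 1 lower of 11. As shares, 38.5%, 42.3% and 42.3% of the assembly genes were higher and 11.5%, 30.8% and 19.2% lower, and 35.3%, 35.3% and 47.1% of the translation factors higher and 5.88% lower, where 23.8%, 30.3% and 30.5% of all genes were higher and 27.1%, 30.5% and 32.3% lower. The ribosomal proteins with other names gave 2, 1 and 2 higher of 5, with Ptcd3 at 0.59 in Myc310. Of the regulators, 3, 4 and 4 were higher and 5, 5 and 4 lower, with Esrra higher by 1.08 and Myc by 1.33 in Myc310.

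The last comparison set MYAZ12_3i_NDI1 beside its parent. Of 78 members 9 were higher and 0 lower, or 11.5% and 0%, against 8.14% and 9.27% of all 12841 genes and 10.1% and 11.2% of the 9349 with a log2 CPM of at least 3. At an unadjusted p under 0.05, 17 members were higher and 3 lower, against 15% and 15.6% of all genes. With DESeq2, 5 were higher and 0 lower at the adjusted threshold, against 6.54% and 7.98% of the 12094 genes to which it gave an adjusted p. The median was 0.04 for the members and 0.00 for all genes. Mrpl38, a mitochondria-specific large-subunit protein, went from 75.01, 76.4 and 78.4 to 92.1, 93.1 and 91.0 CPM (0.26, SE 0.036, adjusted p = 0.00022). Mrps6 went from 54.8, 51.7 and 50.4 to 62.4, 63.2 and 58.1 CPM (0.22, adjusted p = 0.00491), while Slc5a3 had -0.05. Parent and NDI1 cultures did not overlap for either gene.

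The remaining calls with NDI1 were small and close to the threshold. Mrps25 was higher by 0.20, Mrpl33 by 0.17 and Mrpl10 by 0.15 (adjusted p = 0.0151, 0.046 and 0.0286), and Mrpl20, Mrpl45, Mrps7 and Mrps33 made up the 9. Without NDI1 replicate 3 the count was 16, without parent replicate 1 or 2 it was 4, and without parent replicate 3 or NDI1 replicate 1 or 2 it was 3, of which 1 was lower in the last case. Over these 6 fits the share of all genes that was higher ran from 4.09% to 8.13%, and the share that was lower from 5.45% to 8.83%. Mrpl38 and Mrps6 kept their calls in each of these 6 fits. Where Mrps25, Mrpl33 and Mrpl10 lost their calls in them, their log2 fold changes were 0.16 to 0.18, 0.12 to 0.20 and 0.10 to 0.15. With DESeq2 Mrpl33 did not pass (adjusted p = 0.0844). Mrpl12, Mrps30, Mrps36, Mrpl58 and the 3 Mrps18 paralogs did not pass, with log2 fold changes of 0.10, 0.10, -0.01, 0.08, 0.03, -0.01 and 0.08. Mrpl12 passed with no filter on low counts, at 0.11 (adjusted p = 0.0436), and without NDI1 replicate 3, at 0.18 (adjusted p = 0.00489). Of the mtDNA mRNAs mt-Co3 passed, at 0.28 (adjusted p = 0.0123). There is 1 NDI1 line, so the effect of NDI1 and any other difference between these 2 lines cannot be told apart.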

How the data were processed

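PolyA RNA of 45 cultures was sequenced from strand-marking paired-end libraries. The authors used STAR and RSEM through nf-core, on GRCm38, and deposited whole-number gene counts without normalization. Here edgeR 4.0.16 (R 4.3.3) was run on the deposited counts with TMM scaling, its own filter on low counts, a prior count of 2 and the quasi-likelihood test with Benjamini-Hochberg adjustment over all genes tested and a threshold of 0.05. One model held the 24 libraries of the 4 deprived lines (13400 genes), a second the 30 control libraries by origin (13795 genes) and a further model the 6 libraries with and without NDI1 (12841 genes). CPM were scaled over 45 libraries. Where groups overlap or not was judged on CPM. Named members are, per comparison, the 5 largest rises and falls among calls without overlap whose log2 CPM was 3 or more (3 each way for differences between lines, overlap not asked), with Mrpl12, Mrpl58, Mrps18a, Mrps18b, Mrps18c, Mrps30 and Mrps36 always given. Mrpl2, Mrpl4 and others are listed after their calls were seen, as are the examples from pathway lists. The members and lists were chosen with earlier results of these data known. On simulated counts with 200 changed genes, 171 were recovered for LM1, 148 for LM against MYAZ and 167 for NDI1, with 4, 3 and 10 false calls. These simulated libraries were independent, with no difference between lines of an origin, and far fewer genes changed than in the data. The rate of false calls in the data is therefore not known from them. Positions come from GENCODE M21 (GRCm38) and promoters from RefSeq (GRCm38.p6). Alternatives were RLE and upper-quartile scaling, other count filters, a replicate block, DESeq2 1.42.0, other sets of libraries, counts summed per line and leaving out single libraries or lines. One gene of the marker lists is not reported here by name.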

Additional observations from a re-analysis of the deposited data

Results flagged for a closer look

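Among the members whose level by origin is given and their sum, 51 groups of 9 control libraries were examined for a library far from the others, and 1 stood out. It was Mrps36 in the MYAZ libraries, with MYAZ12_3i replicate 3 at 17.8 CPM and the nearest library at 22.2 CPM, a gap of 0.585 of the range. For independent values chance gives about 1 in 20. Cultures of a line are not independent and the groups share libraries, so that rate need not hold here.

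Responses to deprivation that differed from that of MYAZ16_1e in a test of the difference numbered 28 members in Myc310, 43 in LM1 and 40 in LM1_LM. These were 35.9%, 55.1% and 51.3% of the members, near or below the 40.3%, 52.2% and 54.8% of all genes tested and below the 52.5%, 65.9% and 68.7% of genes with a log2 CPM of at least 3. The largest in Myc310 were Mrps22 at 0.45, Mrpl58 at 0.38 and Mrpl24 at 0.36 upwards, and Mrpl34 at -0.64, Mrps35 at -0.48 and Mrps12 at -0.47 downwards. In LM1 they were Mrps22 at 0.62, Mrpl24 at 0.54, Mrpl47 at 0.53, Mrpl34 at -1.40, Mrps35 at -0.67 and Mrps27 at -0.67. In LM1_LM they were Mrps31 at 0.67, Mrps22 at 0.59, Mrpl24 at 0.57, Mrpl34 at -1.24, Mrps35 at -0.75 and Mrps27 at -0.62.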

How the results depend on the processing

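Of 2117 values recomputed under alternatives, 2035 were close to the main value by the rule for their kind. A single member had to keep its direction and its side of the threshold. A median had to stay within the spread of libraries in a group. For a count of called members only the total over both directions was compared, with some tolerance, so shifts between directions were not seen. With upper-quartile scaling the median of all genes moved by less than 0.1, and the members' median moved to -0.19 in Myc310, -0.27 in LM1 and -0.26 in LM1_LM for deprivation and to -0.0641, -0.0878 and -0.0713 for the differences from MYAZ16_1e, whose directions of call are given above. With only the libraries of Myc310 in the model its median was -0.14. Leaving out single libraries gave medians of -0.23 to -0.17 in LM1, -0.22 to -0.16 in LM1_LM and -0.0395 to -0.0103 for the difference of Myc310. Against MYAZ, the median of Myc310 was 0.15 without line MYAZ16_1e and 0.0213 without MYAZ6_6g. With counts summed per line, which leaves 3 values a group, 17 members passed in LM and 16 in LM-LM. For NDI1, DESeq2 gave 5 members, and leaving out 1 library gave 3 to 16.

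The replicate numbers do not pair the samples: deviations of same-numbered libraries correlated at -0.12 to 0.10, -0.13 to 0.13 and -0.05 to 0.04 in the 3 models. With the replicate block 51, 61, 64 and 62 members passed on deprivation, 27, 43 and 40 as differences, 38, 41 and 44 between origins and 9 with NDI1.

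Single members that reversed were uncalled, and all these reversals came from leaving out 1 library. The median difference of the members from MYAZ16_1e also changed sign for LM1_LM, from 0.0141 to -0.0713 with upper-quartile scaling. With single libraries left out it was -0.00898 to 0.0336 for LM1_LM and -0.0207 to 0.0145 for LM1. Over the libraries left out, Mrps18b in MYAZ16_1e ran from -0.00707 to 0.0768, Mrps18c from -0.146 to 0.0113 in Myc310 and from -0.177 to 0.0190 in LM1_LM, and with NDI1 Mrps18a from -0.0203 to 0.0665, Mrps18b from -0.0415 to 0.0310 and Mrps36 from -0.125 to 0.0593. The cause was not tested in any of these.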

Other observations

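The start of 18 of the 78 members, or 23.1%, lies within 1000 bases of the start of a coding gene on the opposite strand, where 1300 of 12308 coding genes tested, or 10.6%, have such a neighbour. For 17 of the 18 the neighbour was tested, and its log2 fold change had the same sign as the member's in 7, 11, 11 and 10 pairs in MYAZ16_1e, Myc310, LM1 and LM1_LM. In LM1, Mrps12, Mrpl49 and Mrps27 and their neighbours had these values. Mrps12, at -0.97, is 172 bases from Sars2, the mitochondrial seryl-tRNA synthetase, at 0.41. Mrpl49, at -0.50, is 59 bases from Fau, which encodes a protein of the cytosolic ribosome, at 0.23. Mrps27, at -1.08, is 81 bases from Ptcd2, at -0.45. The values of all 3 neighbours passed the test.

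Across the 78 members, the log2 fold change on deprivation correlated with the length of the median coding transcript at a Spearman's rho of 0.24, 0.26, 0.27 and 0.28 in MYAZ16_1e, Myc310, LM1 and LM1_LM, where all 11797 genes with a length gave 0.09, 0.05, 0.04 and 0.05. This is a description across genes, which share libraries and depth and are not independent replicates.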
